A study of Homo sapiens with 12 samples.

Results

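The genes described here are 41 effectors of the type I interferon response, the genes that cells switch on after sensing interferon alpha or beta. They were chosen by name as known interferon-stimulated genes and matched by Ensembl identifier. The rule uses no measured value, but the genes were chosen with earlier results of these data known. They are 41 of the 61757 genes that 2 deposited count tables share. RNA was sequenced from RT4, an established human bladder cancer line, in 12 libraries. In the first experiment, 3 libraries came from cells given an empty Flag vector and 3 from cells carrying a Flag-ITGB4 plasmid, all grown in a medium labelled Mycoy' s 5A. In the second, 3 libraries came from parental cells labelled WT and treated with PBS, and 3 from cisplatin-resistant RT4 cells labelled WT and treated with the DNA-crosslinking drug cisplatin, all grown in MEM. How the resistant cells were made, whether they are 1 clone, and the dose and time of cisplatin and of the plasmid were not stated in the labels. Resistance and cisplatin treatment go together in these libraries, so their effects cannot be told apart. ITGB4 encodes an integrin subunit of hemidesmosomes. The labels of the vector and plasmid libraries numbered 2 and 3 name ITGB5 and ITGB6 where their titles name ITGB4. The parental columns are headed only NC with a number, and reading them as parental is an inference from the table that also holds the resistant columns. They are referred to as parental a, b and c.

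Type I interferons bind the receptor IFNAR1 and IFNAR2, whose kinases JAK1 and TYK2 activate STAT2. STAT2 works with IRF9 in ISGF3, a complex that binds interferon-stimulated response elements, in which the letters GAAA recur, and turns on the effector genes. The effectors block viruses at many steps, from entry at membranes to translation, and many cancer cells keep part of the set switched on without infection.

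Promoter sequences are shown first, because the genes are grouped by a response whose DNA element can be read from the letters before their start. RefSeq windows of GRCh38.p14, from 250 bases before to 50 bases after a transcript start, were found for 35 of the 41 genes. None was matched for USP18, IFITM2, LAMP3, MX2, ZNFX1 and TRIM22. The motif searched on both strands was GAAA, any 2 bases, then GAAA. It was present for 24 of the 35 genes (68.6%), against 4.38% of all 27305 genes with a window. Within the 250 bases before the start it was present for 21 of 35 (60.0%) against 3.71%. A longer form of the motif, with a C after the second GAAA, was found for 18 genes (51.4%) against 0.952%. A match is a run of letters and does not show binding.

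The 6 genes with the motif and the largest fold changes are printed below as the 150 bases before their start, followed by HERC6, the neighbour of HERC5 without a match, and IFI44L, which holds a match and was not called in either experiment. These last 2 were chosen after their values were seen. Each is written 5′ to 3′ on its own gene's strand. Capitals mark matches, which read TTTC, 2 bases, TTTC where the motif lies on the other strand. Matches that overlap run together. For RSAD2 the second of its 2 windows is shown, and for IFITM1 a second match runs on past the start.
HERC5 (chr4:88456969-88457118, plus strand): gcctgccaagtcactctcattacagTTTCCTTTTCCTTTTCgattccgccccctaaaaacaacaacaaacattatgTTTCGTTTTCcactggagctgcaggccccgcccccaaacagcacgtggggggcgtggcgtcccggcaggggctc
ISG20 (chr15:88638866-88639015, plus strand): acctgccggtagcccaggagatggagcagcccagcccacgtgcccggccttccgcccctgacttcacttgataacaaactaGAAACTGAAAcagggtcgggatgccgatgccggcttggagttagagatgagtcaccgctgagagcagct
RSAD2 (chr2:6877627-6877776, plus strand): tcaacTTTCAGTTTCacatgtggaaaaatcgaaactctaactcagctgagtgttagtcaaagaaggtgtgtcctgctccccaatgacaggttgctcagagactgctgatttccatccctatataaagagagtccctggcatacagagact
SAMD9 (chr7:93117980-93118129, minus strand): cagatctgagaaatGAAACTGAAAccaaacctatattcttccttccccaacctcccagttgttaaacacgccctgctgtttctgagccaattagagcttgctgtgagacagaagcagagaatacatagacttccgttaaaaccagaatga
ISG15 (chr1:1013347-1013496, plus strand): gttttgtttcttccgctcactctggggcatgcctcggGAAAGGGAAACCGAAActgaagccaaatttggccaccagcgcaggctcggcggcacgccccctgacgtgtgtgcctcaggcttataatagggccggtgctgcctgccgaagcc
IFITM1 (chr11:313890-314039, plus strand): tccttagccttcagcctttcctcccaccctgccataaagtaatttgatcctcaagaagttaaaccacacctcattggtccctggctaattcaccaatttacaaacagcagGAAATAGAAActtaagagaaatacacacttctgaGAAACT
HERC6 (chr4:88378702-88378851, plus strand): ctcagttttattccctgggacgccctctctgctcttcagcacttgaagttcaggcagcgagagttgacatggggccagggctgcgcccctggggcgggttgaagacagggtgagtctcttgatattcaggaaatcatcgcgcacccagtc
IFI44L (chr1:78620298-78620447, plus strand): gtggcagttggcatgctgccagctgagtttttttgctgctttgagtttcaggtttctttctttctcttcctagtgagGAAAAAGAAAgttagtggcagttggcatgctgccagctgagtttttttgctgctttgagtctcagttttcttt

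In ISG15 and HERC5 a pair of matches overlapped, so that the GAAA block occurred 3 times in a row. The first base of a match lay 69 bases before the start in ISG20, 136 in SAMD9 and 145 in RSAD2. Over all windows, of which some overlap each other, there were 42 matches. Of these, 34 began within 150 bases before the start and 3 began after it. Genes with and without a match had close median changes. With the ITGB4 plasmid the median log2 fold change was 1.09 in the 24 genes with the motif and 1.21 in the 11 without it. In resistant cells the medians were -0.52 and -0.51. These medians are descriptions with no test.

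**Figure D1:**
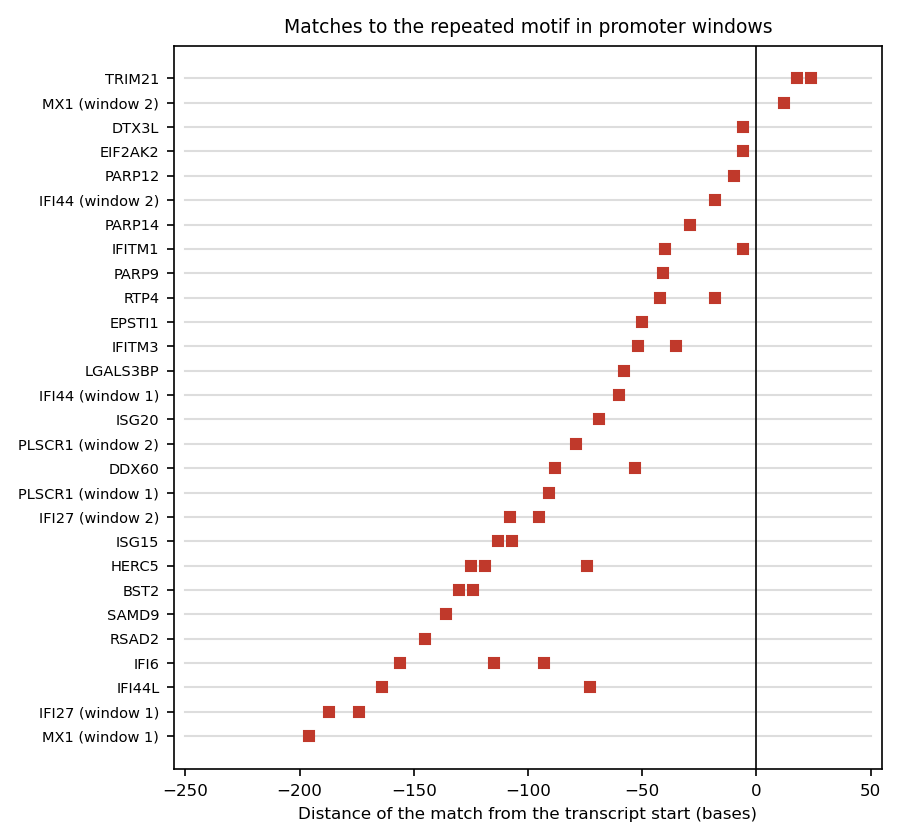
Distance in bases (x axis) from the transcript start (black line) to the first base of each motif match, with 1 row for each promoter window that holds a match. Of 42 matches, 34 began within 150 bases before the start and 3 after it.

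Total counts were 22701466 to 33352045 per library in the first experiment and 31824582 to 38199946 in the second. ITGB4, whose counts cannot separate the plasmid's transcript from the cell's own, was at 858, 879 and 871 CPM with the vector and at 1485, 1379 and 1416 CPM with the plasmid (log2 0.71, adjusted p = 2.22e-13). It was also 1.40-fold higher in resistant than in parental cells. Of 16 urothelial and epithelial markers, 14 had a mean of at least 1 CPM in each experiment, while KRT20 was at 0 in all libraries and UPK1A was near 0. The summed level of 10 leukocyte markers was 0.24 to 1.40 CPM in every library, and that of 5 endothelial markers was 0.71 to 2.51 CPM. The sum of 4 plasmacytoid dendritic cell markers, nearly all of it TCF4, moved as the effectors did, from 13.4-15.5 to 21.3-22.6 CPM with the plasmid and from 25.8-29.5 CPM in parental to 12.7-16.9 CPM in resistant cells, while the defining CLEC4C and LILRA4 were at 0 in all libraries. The sum of 7 fibroblast markers, nearly all of it COL3A1 and COL1A1, was 48.3-52.3 against 24.5-26.1 CPM and 11.5-12.02 against 4.43-5.73 CPM. These 2 genes moved in opposite directions in each experiment. With the plasmid COL3A1 fell (log2 -1.34) and COL1A1 rose (log2 0.77). In resistant cells COL1A1, nearly all of the second sum, fell (log2 -1.32). COL3A1 rose there (log2 2.68), from a mean of 0.056 to 0.39 CPM. Values are CPM, counts scaled to library size with TMM factors within each table. The ± after a log2 fold change is an approximate standard error from 3 against 3 libraries, its size over the root of F. Called means an adjusted p under 0.05 in edgeR's quasi-likelihood test.

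Nearly all effectors rose with the ITGB4 plasmid. Of 40 tested genes, 39 were higher, where 36.5% of all 16950 tested genes were, and 0 were lower, where 35.7% of all genes were. The count of lower genes was also 0 at an unadjusted p under 0.05 in edgeR and in DESeq2 and limma-voom. The median change was 2.34-fold (log2 1.23), against a log2 median of 0.00 over all tested genes. At least a doubling was seen in 26 of the 40, against 7.54% of all genes, and 32 passed a test for a rise beyond 1.5-fold, against 11.1%. IFI44L was the 1 tested gene not called, and IFITM2 had too few counts to be tested. Plasmid and vector libraries did not overlap for 39 of the 40 genes, but neither did they for 12628 of all 16950 tested genes. A lack of overlap was thus common.

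In resistant cells, which were also the cisplatin-treated ones, most of the set was lower. There, 37 of 41 tested genes were lower than in parental cells, where 27.7% of all 16875 tested genes were, and 1 was higher, IFITM2, where 26.8% of all were. The median fell by 0.51 on the log2 scale (1.43-fold lower), while the median over all tested genes was 0.02 above 0. Only SAMD9 and IFI27 fell by at least 2-fold, 2 of 41 against 5.07% of all genes, and 14 of 41 passed the test for a fall beyond 1.5-fold, against 6.31%. DDX60, ISG15 and IFI44L were not called. Resistant and parental libraries did not overlap for 38 of the 41 genes, and for 10261 of all 16875 tested genes. Scaling by library size alone shifted the median of all genes up by 0.16 on the log2 scale and the share of higher calls among all calls from 49.1% to 67.8%. The effectors were then lower in 33 and higher in 3.

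Altogether, 37 of the 40 genes tested in both experiments were higher with the plasmid and lower in resistant cells, a pattern that 16.6% of the 15655 genes tested in both had. The difference between the 2 responses was tested in 1 fit of all 12 libraries. It was called for 39 of 41 genes, all with the larger value for the plasmid, against 30.2% of 18516 genes with a difference in that direction and 31.6% in the other. The 2 not called were IFITM2 (0.44 ± 0.86, adjusted p = 0.683) and IFI44L (log2 0.03, adjusted p = 0.739). Across the 40 genes the 2 log2 fold changes correlated weakly, with Pearson's r of -0.30 and Spearman's rho of -0.39, as a description over genes that are not independent. In bulk RNA, fewer expressing cells and less RNA per cell cannot be told apart.

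**Figure D2:**
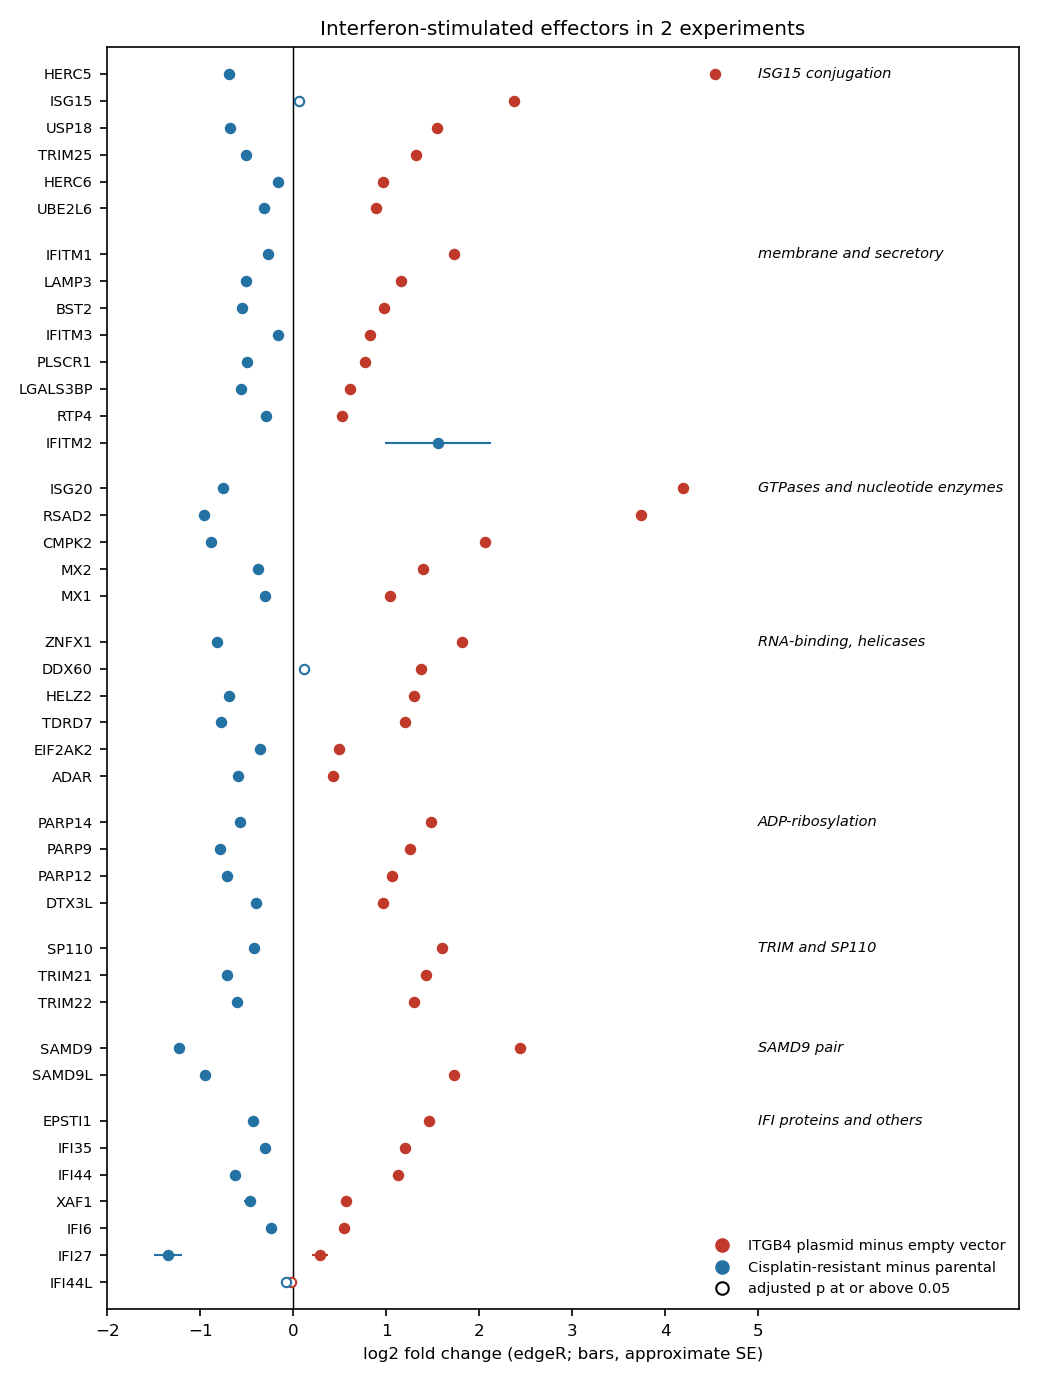
log2 fold change (x axis) of each effector gene, grouped by role, for ITGB4 plasmid minus vector (red) and resistant minus parental (blue), with approximate standard errors as bars and open points for genes not called. Red points lie right of 0 for 39 of 40 genes, up to 4.54 for HERC5, while blue points lie left of 0 except for IFITM2, DDX60 and ISG15.

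The 41 genes took 1.03% to 1.04% of all counts in the vector libraries and 2.35% to 2.37% in the plasmid libraries. They took 2.85% to 2.87% in parental and 2.20% to 2.27% in resistant libraries. No library of either experiment overlapped with the other group. Parental cells thus had the highest share and vector cells the lowest, although both are controls. The mean CPM was higher in parental than in vector cells for 41 of 41 genes, with a median ratio of 2.77 and a range from 1.33 to 49.3. It was higher in parental than in plasmid cells for 31. These levels stand side by side only, because the 2 tables were made and normalised separately and the medium differed. The shares of all genes that were higher in parental than in vector or plasmid cells were not computed. The counts of effectors therefore have no background beside them.

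**Figure D3:**
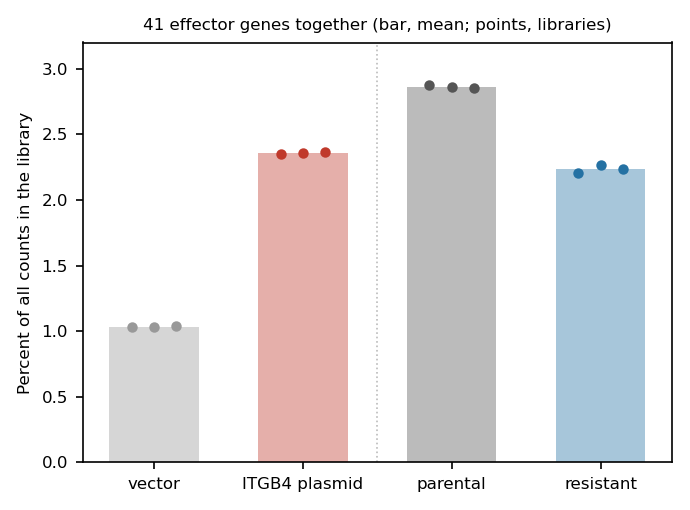
Percent of all counts taken by the 41 effector genes together (y axis) in each library (points) and as the mean of 3 libraries (bars), for the 4 groups, with a dotted line between the separately made tables. Vector libraries sit at 1.03% to 1.04% and plasmid libraries at 2.35% to 2.37%, and parental libraries at 2.85% to 2.87% lie above resistant ones at 2.20% to 2.27%.

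Levels between genes were compared as CPM per kilobase of exon, with the exons of all annotated transcripts of a gene joined. This length can exceed that of the transcript a cell makes, as may be so for ISG20 with 7363 bases. The level per kilobase is then too low, so the order between genes is approximate. In vector cells IFI6 stood first at 435, followed by LGALS3BP at 383 and BST2 at 245, while ISG15 was sixth at 136. With the plasmid ISG15 stood first at 704 on the same scale. HERC5 and ISG20 were at 2.97 and 1.16 in vector cells, the lowest of the tested genes, and reached 69.1 and 21.2 with the plasmid.

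The first role is ISG15 and its conjugation. ISG15 is a small protein that is attached to other proteins like ubiquitin, UBE2L6 is the enzyme that carries it, HERC5 is the main ligase that attaches it in human cells, and USP18 removes it and also damps the receptor. All 6 genes of the group rose with the plasmid (median log2 1.43), and 5 of 6 fell in resistant cells (median -0.41). For this and all later roles, the shares of all tested genes were 36.5% higher with the plasmid and 27.7% lower in resistant cells. HERC5, at chr4:88457117-88506163 in GRCh38, had the largest change of all 41. It was at 14.0, 14.0 and 14.5 CPM with the vector and at 325, 338 and 325 CPM with the plasmid. Every plasmid library was far above every vector library, a 23.2-fold rise (log2 4.54 ± 0.037, adjusted p = 7.65e-22). In resistant cells it went from 169, 165 and 174 CPM to 99.1, 107.5 and 106.7 CPM, 1.62-fold lower with no overlap (adjusted p = 9.81e-10).

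ISG15 itself, at chr1:1001138-1014540, behaved differently in the 2 experiments. It was at 124, 133 and 127 CPM with the vector and at 686, 630 and 672 CPM with the plasmid. The groups did not overlap, and the rise was 5.18-fold (log2 2.37 ± 0.035, adjusted p = 1.52e-18). It was at 1764, 1715 and 1765 CPM in parental and at 2065, 1802 and 1618 CPM in resistant libraries. Resistant library 3 lay below all parental libraries and the other 2 above them, so no difference was called (log2 0.06 ± 0.058, adjusted p = 0.368). Without resistant library 3 it was called higher at log2 0.15 (adjusted p = 0.00529), and without library 1 the value was -0.02. Over the 9270 genes averaging 10 CPM or more, the log2 ratio of resistant library 1 to 3 went with the log2 exon length at a Spearman's rho of -0.48, shorter genes being higher in library 1, and at -0.61 over 40 effectors. ISG15, with 941 bases of exon, is among the shortest. The part of this in the result was not tested.

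The rest of the conjugation group changed less than HERC5. USP18 rose 2.92-fold with the plasmid, from 104 ± 3.15 to 303 ± 3.61 CPM (SD, n = 3), and was 1.60-fold lower in resistant cells. TRIM25, a ligase that also activates the RNA sensor RIG-I, rose 2.50-fold and was 1.42-fold lower. UBE2L6 rose 1.85-fold and was 1.24-fold lower. HERC6, a relative of HERC5 that begins upstream of it on chromosome 4, rose 1.95-fold and was 1.12-fold lower, a fall lost with scaling by library size alone (adjusted p = 0.963).

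The log2 ratio of HERC5 to HERC6 separates these neighbours within each library. It was -2.86, -2.90 and -2.83 with the vector and 0.70, 0.71 and 0.72 with the plasmid, a shift of 3.57 with no overlap. HERC5 thus went from far below HERC6 to above it. In the second experiment the ratio was -1.03, -1.04 and -0.93 in parental and -1.51, -1.52 and -1.55 in resistant cells. The pairs of neighbours whose ratios are given were chosen after their values were seen, and the ratios carry no test.

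**Figure D4:**
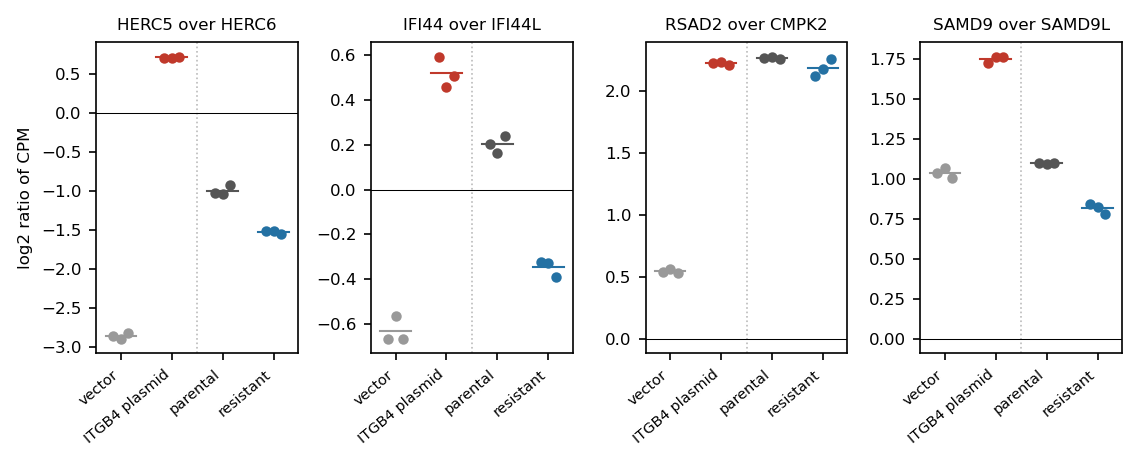
log2 ratio of CPM (y axis) between the genes of 4 neighbouring pairs in each library (points) and group mean (lines), with a dotted line between the separately made tables. The HERC5 to HERC6 ratio moved by 3.57 with the plasmid, and the RSAD2 to CMPK2 ratio overlapped between parental and resistant libraries.

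The second role, named membrane and secretory restriction factors, holds genes of which several, but not all, act at entry, budding or secretion. Of its 8 genes, all 7 tested rose with the plasmid (median log2 0.82), and 7 of 8 fell in resistant cells (median -0.39 over the 8). IFITM1, at chr11:313506-315272, blocks fusion of viruses at the cell surface. It was at 89.0, 96.3 and 96.8 CPM with the vector and at 333, 294 and 311 CPM with the plasmid. This was a 3.32-fold rise with no overlap (log2 1.73 ± 0.042, adjusted p = 1.01e-15), while in resistant cells IFITM1 was 1.21-fold lower. IFITM3, which acts in endosomes, rose 1.76-fold and was 1.12-fold lower. Both falls were lost with scaling by library size alone (adjusted p = 0.0546 for IFITM1 and 0.972 for IFITM3).

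IFITM2 was the 1 gene called higher in resistant cells, and it was hardly expressed. It had 15 counts in the 3 parental libraries (0.22, 0.15 and 0.056 CPM) and 47 in the 3 resistant ones (0.45, 0.42 and 0.41 CPM). Resistant libraries all lay above parental ones (log2 1.55 ± 0.57, adjusted p = 0.0284). The call was lost with DESeq2 (adjusted p = 0.0546), with no low-count filter (0.0527) and without any 1 of parental b, parental c or the 3 resistant libraries (0.0663 to 0.128). In the first experiment it had 7 counts with the vector and 26 with the plasmid. The IFITM genes are similar in sequence, and IFITM1 and IFITM2 share 351 bases of annotated exon, so the counts of the IFITM genes are uncertain.

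BST2, or tetherin, holds budding virions at the cell surface, and it rose 1.97-fold with the plasmid and was 1.47-fold lower in resistant cells. LAMP3, a lysosomal membrane protein, rose 2.23-fold and was 1.43-fold lower. PLSCR1, a phospholipid scramblase, rose 1.71-fold and was 1.41-fold lower. RTP4, a chaperone of receptor transport, rose from 17.1 ± 1.20 to 24.7 ± 0.36 CPM, and LGALS3BP, a secreted glycoprotein, from 1372 ± 9.08 to 2094 ± 69.0 CPM (SD, n = 3). Both were among the genes whose rise did not pass the 1.5-fold test, and in resistant cells they were 1.23-fold and 1.48-fold lower.

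The third role, GTPases with nucleotide and RNA-degrading enzymes, had a median log2 rise of 2.06 and a median fall of 0.76, and all 5 of its genes changed in both experiments. RSAD2, or viperin, at chr2:6865806-6898239, makes a chain-terminating nucleotide. It was at 163, 165 and 159 CPM with the vector and at 2136, 2180 and 2185 CPM with the plasmid. That is a 13.4-fold rise without overlap (log2 3.74 ± 0.025, adjusted p = 8.12e-23). In the second experiment RSAD2 fell from 2952, 2973 and 2962 CPM to 1426, 1576 and 1556 CPM in resistant cells. It was 1.95-fold lower in them, again without overlap (adjusted p = 4.47e-13).

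CMPK2, a nucleotide kinase that supplies the substrate of viperin, starts next to RSAD2 on the other strand of chromosome 2. It was at 112, 111 and 110 CPM with the vector and at 454, 463 and 470 CPM with the plasmid, 4.16-fold higher (log2 2.06 ± 0.027, adjusted p = 3.87e-19). In resistant cells it went from 613, 611 and 618 CPM to 326, 347 and 324 CPM, 1.85-fold lower (adjusted p = 2.67e-12). Neither comparison overlapped. The log2 ratio of RSAD2 to CMPK2 moved from 0.55 to 2.23 with the plasmid, but only from 2.27 to 2.19 in resistant cells, where the libraries overlapped.

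ISG20, at chr15:88636153-88656483, is an exonuclease that degrades RNA. It was at 8.25, 8.63 and 8.67 CPM with the vector and at 162, 157 and 150 CPM with the plasmid. It had the second largest rise, 18.3-fold and without overlap (log2 4.19 ± 0.046, adjusted p = 5e-20). In resistant cells ISG20 was 1.70-fold lower, at 248 ± 10.9 against 420 ± 9.12 CPM (SD, n = 3). MX1 and MX2, dynamin-like GTPases that trap viral nucleoproteins and capsids, rose 2.06-fold and 2.63-fold and were 1.24-fold and 1.30-fold lower.

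**Figure D5:**
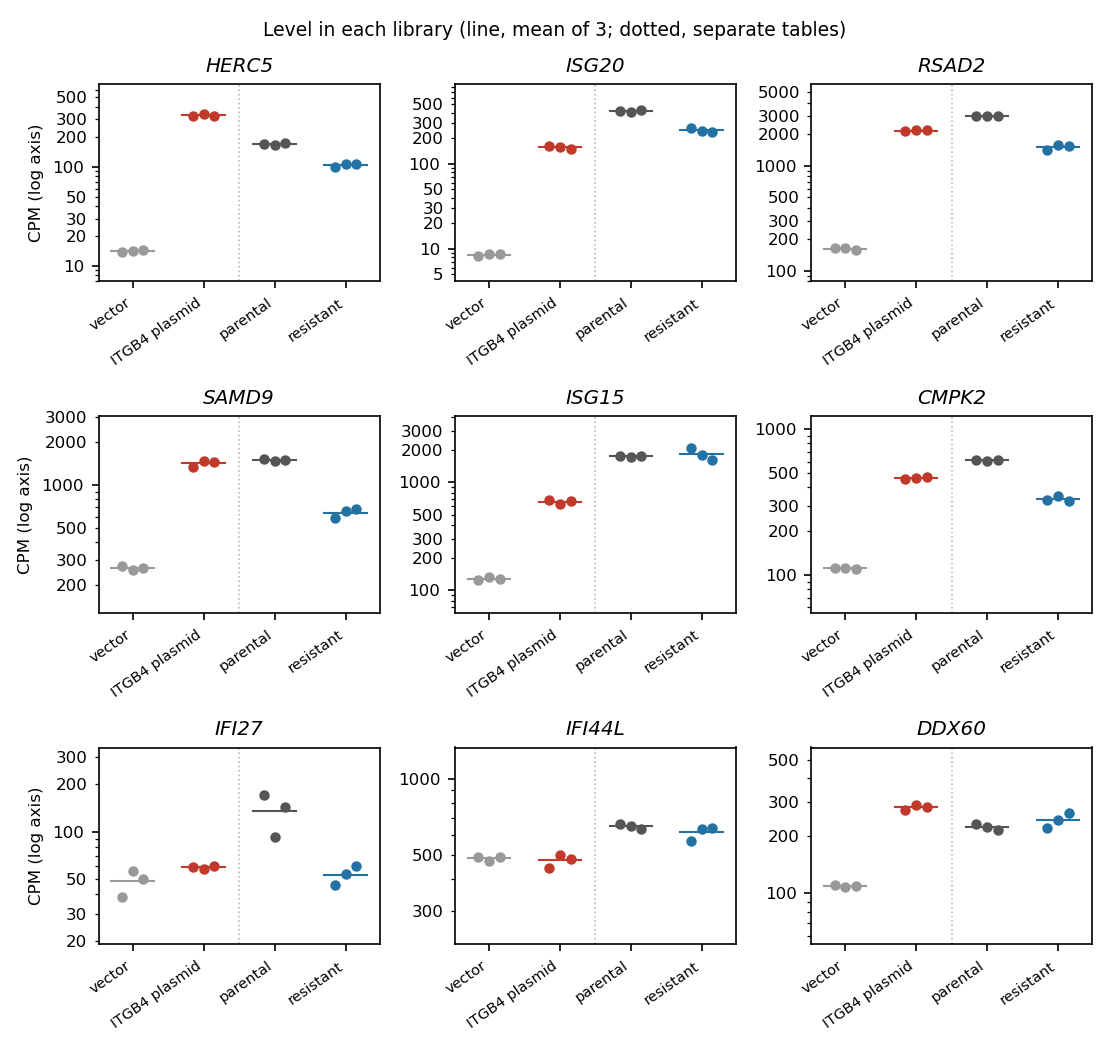
CPM on a log axis (y axis) of 9 effector genes in each of the 12 libraries (points), with group means as lines and a dotted line between the separately made tables. HERC5, ISG20 and RSAD2 rose 23.2-fold, 18.3-fold and 13.4-fold from vector to plasmid, while the IFI44L libraries overlapped in both experiments.

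The fourth role gathers RNA-binding proteins and helicases. All 6 rose with the plasmid (median log2 1.25), and 5 fell in resistant cells (median -0.64 over the 6). ZNFX1, at chr20:49237946-49278426, is a helicase that senses double-stranded RNA at mitochondria. It was at 215, 218 and 218 CPM with the vector and at 775, 761 and 750 CPM with the plasmid, a 3.50-fold rise (log2 1.81 ± 0.025, adjusted p = 6.45e-19). In resistant cells it went from 705, 730 and 691 CPM to 379, 409 and 412 CPM, 1.77-fold lower (adjusted p = 1.61e-11). The groups were apart in both experiments.

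TDRD7, a tudor-domain protein that restrains autophagy used by viruses, rose 2.31-fold with the plasmid. It went from 112, 103 and 104 CPM in parental to 59.6, 64.0 and 61.9 CPM in resistant libraries. These did not overlap, and the level was 1.72-fold lower (log2 -0.78 ± 0.051, adjusted p = 8.36e-10). DDX60, a helicase linked to RNA sensing, rose 2.58-fold with the plasmid but was not called in resistant cells. It was at 231, 222 and 214 CPM in parental and at 219, 243 and 262 CPM in resistant libraries, where resistant library 1 lay among the parental ones (log2 0.12 ± 0.055, adjusted p = 0.0843). It was called higher without that library (log2 0.19, adjusted p = 0.000519) and with scaling by library size alone (log2 0.28, adjusted p = 0.000349). With 6750 bases of exon, DDX60 is long, and it was highest in resistant library 3, where long genes tended to be higher than in library 1. For resistant minus parental cells, Spearman's rho with log2 exon length was -0.15 over 9270 genes, longer genes tending lower. The part of length in the DDX60 result was not tested.

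HELZ2, a helicase coactivator, rose 2.46-fold and was 1.61-fold lower. The smallest rises of the group were those of EIF2AK2, the kinase PKR that stops translation on double-stranded RNA, and ADAR, which edits adenosine in such RNA. EIF2AK2 rose 1.41-fold, from 268 ± 8.28 to 377 ± 22.2 CPM, and ADAR 1.34-fold, from 1025 ± 4.88 to 1374 ± 14.7 CPM (SD, n = 3). Neither passed the 1.5-fold test. In resistant cells ADAR was 1.51-fold lower and EIF2AK2 1.28-fold lower.

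The fifth role is ADP-ribosylation, and its 4 genes moved together in both experiments, with a median rise of 1.16 and a median fall of 0.64 on the log2 scale. PARP9 and DTX3L form a complex that modifies ubiquitin and histones, and their genes start beside each other on opposite strands of chromosome 3. PARP9 rose 2.38-fold with the plasmid. It was at 531, 530 and 527 CPM in parental and at 289, 315 and 313 CPM in resistant libraries. The groups lay well apart, and the fall was 1.73-fold (log2 -0.79 ± 0.040, adjusted p = 2.68e-11). DTX3L rose 1.95-fold and was 1.33-fold lower. PARP14 and PARP12, mono-ADP-ribosyl transferases, rose 2.78-fold and 2.09-fold and were 1.49-fold and 1.63-fold lower.

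The sixth role holds 3 genes, and each rose with the plasmid and fell in resistant cells. SP110, a nuclear body protein, rose 3.02-fold and was 1.34-fold lower. TRIM21, which binds antibodies inside cells, rose from 21.8 ± 0.78 to 59.1 ± 3.08 CPM (SD, n = 3), 2.70-fold, and was 1.64-fold lower. TRIM22, a ligase that restricts retroviruses, rose 2.45-fold and was 1.52-fold lower.

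The seventh role is the SAMD9 pair, neighbours on chromosome 7 that restrict poxviruses and slow cell growth. This pair had the largest median fall of any role in resistant cells, 1.09 on the log2 scale, and a median rise of 2.08. SAMD9, at chr7:93099513-93118023, was at 273, 255 and 262 CPM with the vector and at 1348, 1480 and 1456 CPM with the plasmid, 5.42-fold higher (log2 2.44 ± 0.034, adjusted p = 1.03e-18). It was at 1523, 1479 and 1503 CPM in parental and at 589, 655 and 676 CPM in resistant libraries, 2.35-fold lower (log2 -1.23 ± 0.044, adjusted p = 2.28e-13). Neither experiment had overlapping libraries. SAMD9L was at 713, 694 and 701 CPM in parental and at 329, 370 and 394 CPM in resistant libraries, 1.93-fold lower (log2 -0.95 ± 0.051, adjusted p = 5.57e-11), also without overlap. With the plasmid it rose 3.30-fold. SAMD9 moved by more than SAMD9L both times, and their log2 ratio changed by 0.71 with the plasmid and by -0.28 in resistant cells, with no overlap in either.

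The last role, IFI proteins and others, had the smallest median rise of the 8 roles, 0.56 on the log2 scale, and 6 of its 7 genes rose and 6 fell. IFI27, a mitochondrial and nuclear envelope protein, was at 38.2, 56.5 and 50.2 CPM with the vector and at 59.1, 57.6 and 60.7 CPM with the plasmid. Vector library 1 was the low one, and the small rise (log2 0.29 ± 0.087, adjusted p = 0.00709) was not called by DESeq2 (adjusted p = 0.103) or in the 12-library fit (adjusted p = 0.16). In resistant cells IFI27 had the largest fall of all 41 genes. It was at 172, 91.8 and 143 CPM in parental and at 45.9, 53.3 and 60.2 CPM in resistant libraries. Parental library b was far below the other 2 but still above all resistant ones, and the fall was 2.55-fold (log2 -1.35 ± 0.15, adjusted p = 7.29e-07).

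IFI44L was called in neither experiment. It was at 489, 475 and 492 CPM with the vector and at 443, 501 and 482 CPM with the plasmid (log2 -0.03 ± 0.035, adjusted p = 0.459). It was at 664, 650 and 633 CPM in parental and at 568, 635 and 638 CPM in resistant libraries (log2 -0.08 ± 0.044, adjusted p = 0.129). Libraries overlapped both times, and it was called lower in resistant cells only without resistant library 3 (log2 -0.11, adjusted p = 0.0492). Its neighbour and relative IFI44, on the same strand of chromosome 1, rose 2.18-fold and was 1.55-fold lower. The log2 ratio of IFI44 to IFI44L therefore moved by 1.15 with the plasmid and by -0.55 in resistant cells, without overlap in either.

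Of the others in this role, EPSTI1, an epithelial and stromal gene, rose 2.74-fold and was 1.35-fold lower. IFI35, which binds leucine-zipper proteins, rose 2.30-fold and was 1.24-fold lower. XAF1, a proapoptotic antagonist of XIAP, rose 1.48-fold and was 1.38-fold lower. In XAF1, 38.3% of the exon bases are shared with the antisense gene PRAL, and reads were counted without strand in the first table. SP110 and IFITM3 share 20.9% and 21.3% with other annotated genes, and TRIM22 10.7%. IFI6, a mitochondrial protein that delays apoptosis, rose 1.46-fold and was 1.18-fold lower, a fall lost with scaling by library size alone (adjusted p = 0.115).

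The genes of the pathway upstream were read from the same fits over 6 lists with 46 genes. With the plasmid, 17 of 27 tested were higher and 4 lower (median log2 0.35), where 36.5% and 35.7% of all tested genes were. In resistant cells 3 of 29 tested were higher and 19 lower (median -0.51), where 26.8% and 27.7% of all were. The effectors' medians were 1.23 and -0.51.

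Ligand transcripts were scarce. Of 17 type I interferon genes, 15 had no count in any of the 12 libraries, which allows up to 3 counts per library, or 0.079 to 0.132 CPM, for counting error only. The interferon alpha genes among them are near-identical copies, so reads shared between those genes may have gone uncounted. IFNB1 had 24 counts with the vector, 20 with the plasmid, 18 in parental and 39 in resistant cells, too few to be tested. IFNL1, a type III interferon that drives the same effectors through IFNLR1 and IL10RB, had 0.38, 0.31 and 0.15 CPM with the vector and 1.88, 1.33 and 1.82 CPM with the plasmid. Those are 24 against 132 counts, without overlap (log2 2.61 ± 0.28, adjusted p = 2.72e-07). It was not called in resistant cells (log2 0.39, adjusted p = 0.176). IFNL2 was called higher there on 22 against 61 counts (log2 1.37, adjusted p = 0.0234), a call lost without parental a, parental c or resistant 3.

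Most receptor genes fell in resistant cells, where 5 of 6 were lower with a median of -1.06 on the log2 scale, against 27.7% of all genes lower. With the plasmid 2 of 6 were higher and 2 lower, shares near the 36.5% and 35.7% of all genes. IFNAR2 went from 13.8, 12.7 and 11.3 CPM to 4.87, 4.94 and 4.82 CPM, 2.59-fold lower and without overlap (adjusted p = 2.02e-08). IFNAR1 was 1.64-fold lower, and with the plasmid it fell by 0.28 on the log2 scale while IFNAR2 was not called (log2 -0.03, adjusted p = 0.608). IFNLR1 was 1.98-fold higher with the plasmid and 2.33-fold lower in resistant cells. The interferon gamma receptor genes IFNGR1 and IFNGR2 were 1.87-fold and 2.62-fold lower in resistant cells.

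Of the signalling proteins, STAT2 moved as most effectors did. It was at 261, 263 and 263 CPM with the vector and at 648, 646 and 642 CPM with the plasmid, a 2.46-fold rise without overlap (adjusted p = 1.48e-17). In resistant cells it was 1.33-fold lower (adjusted p = 4.28e-07). IRF9, the DNA-binding part of ISGF3, did not rise, at 30.7 ± 1.52 with the vector against 28.1 ± 1.25 CPM with the plasmid (SD, n = 3; log2 -0.13, adjusted p = 0.023), and in resistant cells it was not called (log2 -0.14, adjusted p = 0.205), except without resistant library 3 (adjusted p = 0.0442). The first of these calls was lost without vector library 2 or 3 or plasmid library 3. JAK1 was 1.37-fold lower in resistant cells and not called with the plasmid (log2 -0.03, adjusted p = 0.295), and TYK2 was called in neither (adjusted p = 0.578 and 0.597). With library sizes alone JAK1 was called lower with the plasmid (adjusted p = 0.0144) and TYK2 higher in resistant cells (log2 0.20, adjusted p = 0.00248).

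Among the interferon regulatory factors, 4 of 6 rose with the plasmid, against 36.5% of all genes, and 4 of 6 fell in resistant cells, against 27.7%. IRF1, an activator that is itself induced by interferon, rose 1.46-fold and was 1.89-fold lower. IRF7, which amplifies type I interferon production, was at 5.15, 18.8 and 3.42 CPM in parental and at 2.12, 4.91 and 1.94 CPM in resistant libraries. Parental library b alone was high, and the call (log2 -1.59, adjusted p = 0.00761) was lost without it (log2 -0.52, adjusted p = 0.203). Of 9 negative regulators, 8 were higher with the plasmid and 7 lower in resistant cells, against the same 36.5% and 27.7% of all genes. SOCS3, an inhibitor of JAK kinases, was at 13.1, 13.1 and 13.1 CPM with the vector and at 53.1, 51.4 and 53.5 CPM with the plasmid, 4.03-fold higher, and was 1.94-fold lower in resistant cells.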

How the data were processed

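The data were 2 tables of raw counts per gene, as deposited by the authors, with 6 libraries each. Per the file headers, the first table was counted over exons with featureCounts 2.0.1 on the Ensembl release 107 annotation with no strand option, although the labels' protocols name a strand-marking kit. The aligners, and how the second table was counted, are not given in the sources used. Per the submitters' processing notes, the build was hg38. The 41 genes, their roles, the pathway and marker lists and the tests were chosen with earlier results of these data known. Per-library values, fold change and test were given for the 8 genes with the largest absolute log2 fold change in each experiment among those with a mean of at least 1 CPM, for every gene not called and for every gene called against the direction of the others. Other genes are given by fold, and 1 gene of the pathway lists, counted in their totals, is not reported here.

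Genes passing filterByExpr were tested in each experiment with TMM factors and edgeR 4.0.16 (quasi-likelihood, R 4.3.3), and p-values were adjusted by Benjamini-Hochberg across every tested gene. The 1.5-fold test was glmTreat. The difference between experiments was fitted on all 12 libraries with 4 group means. DESeq2 1.42.0 and limma-voom (limma 3.58.1), other scalings and filters, a replicate block and leaving out each library were alternatives. Exon lengths and positions came from GENCODE 29 on GRCh38, and promoters from RefSeq. The procedure was tested on simulated data, where it narrowly missed its first pass mark for the difference between experiments, with misses at low counts, and the mark was then set on well-counted genes only. No 2 replicates agreed within sampling noise (chi-square per degree of freedom 1.54 to 12.2). Nothing says that replicates were separate cultures, so p-values measure only a spread between libraries that may be technical.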

Additional observations from a re-analysis of the deposited data

How the results depend on the processing

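With the plasmid, the count of higher effectors was 38 to 40 under other scalings, filters, DESeq2, limma-voom, the 12-library fit and each left-out library, and 32 beyond 1.5-fold. It was 40 with no low-count filter, where IFITM2 was called, and the 39 of the 12-library fit held IFITM2 and not IFI27. The replicate block also gave 39 higher and 0 lower. Libraries with the same number did not deviate together (correlations -0.043, -0.067 and -0.053). With 3 libraries per group, this cannot show whether the numbers pair them. No paired analysis was possible because the parental columns' numbers tie to no sample, for the second experiment. The count of lower effectors in resistant cells, 37, was 14 beyond 1.5-fold. The count of higher ones, 1, was 3 with library sizes alone, 0 with DESeq2, 0 beyond 1.5-fold, 2 in the 12-library fit and 0 to 1 with each library left out. That 1 was not always IFITM2: it was DDX60 with no filter, with a filter at 1 CPM and without resistant library 1, and ISG15 without resistant library 3. Values near 0 changed sign. With the plasmid, IFI44L ran from -0.0623 to 0.0162 with each library left out (lowest without plasmid library 2, highest without library 1). In resistant cells IFI44L was at 0.0837 with library sizes alone, and ISG15 ran from -0.0247 to 0.1487. The count of pathway genes called, 21 with the plasmid and 22 in resistant cells, was 20 and 22 with DESeq2's size factors and 21 and 25 with library sizes alone. For single pathway genes, the alternatives were chosen after seeing the data. With the plasmid and each library left out, IFNAR2 ran from -0.0613 to 0.0022, TYK2 from -0.0593 to 0.0040, IFNGR2 from -0.0057 to 0.2147, called without plasmid library 2, and IRF7 from -0.0519 to 0.6311, called without vector library 3. IRF9 in resistant cells was at 0.0257 with library sizes alone. The cause was not tested. Counts limit IFITM2 and the interferon genes, where a few reads decide a value.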
